A study of Mus musculus with 6 samples.

Results

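The genes described here are 10 genes of the endoplasmic reticulum (ER), its chaperones and targets of the transcription factor XBP1. They are Hspa5, Hsp90b1, Xbp1, Dnajb9, Herpud1, Sdf2l1, Pdia4, Pdia6, Calr and Creld2, taken by symbol from a table of 26469 gene rows. All 10 passed the filter on low counts, as did 18323 genes in all. RNA was sequenced from 6 cultures of CD4+ T cells from mouse spleen. The 3 control samples came from Sf3b1K700E/fl mice without Cre and are annotated WT. The 3 mutant samples came from mice with the same conditional allele and Cd4Cre and are annotated Sf3b1 mutation. Sf3b1 encodes a core splicing factor, and K700E is a change found in cancers. Cd4-Cre recombines in developing thymocytes, so the allele is altered before the cells become naive T cells. Every culture started from sorted naive cells and was held for 36 h with TGF-β at 5 ng/ml, antibodies to CD3 and CD28, and blocking antibodies to IL-4 and IFNγ. This is a mixture that drives cells towards regulatory T cells. The sources used here give no age, sex or number of animals behind a sample. P-values therefore cover the spread between these samples alone, and part of it may be technical.

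The ER folds and modifies proteins bound for the cell surface or for secretion. When unfolded proteins gather there, the sensors IRE1, PERK and ATF6 start the unfolded protein response. IRE1 removes a short intron from Xbp1 mRNA, and the protein made from the spliced form activates genes of folding, transport and degradation, while cleaved ATF6 activates many of the same chaperone genes. Activated T cells enlarge the ER as they begin to make cytokines and receptors. Counts per gene cover both forms of Xbp1 mRNA and do not report how much of it was spliced.

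Cis-elements of this response lie close to the start site of many chaperone genes, and the matches in the 6 of the 10 genes that held one are shown. The genes were listed as ER chaperones and XBP1 targets, so such matches go with that choice. They are a description and no independent result. In the RefSeq promoters (build GRCm38.p6), the 250 bases before the start were searched on both strands. The ER stress response element (ERSE), spelled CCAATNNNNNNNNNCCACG, was found in 5 of the 10 genes. The shorter ERSE-II, ATTGGNCCACG, was found in 1 more. Over all 32851 promoters of the same length, 0.113% held an ERSE and 0.0304% an ERSE-II. The matches are printed on the gene's strand with the fixed letters of the motif in capitals. An ERSE that begins with CGTGG and ends with ATTGG lies on the opposite strand. The ERSE-II of Herpud1, which begins with ATTGG in its own spelling, lies on the gene's strand.
Hspa5: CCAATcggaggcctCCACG
Hsp90b1, farther from the start: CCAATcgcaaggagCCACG
Hsp90b1, nearer the start: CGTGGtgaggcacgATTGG
Pdia6: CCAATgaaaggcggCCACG
Calr: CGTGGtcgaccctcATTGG
Creld2: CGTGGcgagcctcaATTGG
Herpud1: ATTGGgCCACG
The first base of the element lay at position -65 in Hspa5, -98 in Pdia6, -162 in Calr, -126 in Creld2 and -52 in Herpud1, counted from the start site. In Hsp90b1 the pair began at -212 and -107. Xbp1, Dnajb9, Sdf2l1 and Pdia4 had neither spelling in this window. The XBP1 element core TGACGTGG was in none of the 10 windows and in 0.563% of all promoters. The short core CCACG, which is part of every ERSE, was in 8 of the 10 windows and in 28.3% of all promoters.

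The promoters of 3 genes are shown whole, the pair in which all mutant libraries lay below all controls and Herpud1, which had the largest difference. Capitals mark the fixed letters of the elements. They are the Hspa5 promoter at chr2:34771840-34772089 (plus strand), the Pdia6 promoter at chr12:17266339-17266588 (plus strand) and the Herpud1 promoter at chr8:94386179-94386428 (plus strand).
Hspa5 promoter: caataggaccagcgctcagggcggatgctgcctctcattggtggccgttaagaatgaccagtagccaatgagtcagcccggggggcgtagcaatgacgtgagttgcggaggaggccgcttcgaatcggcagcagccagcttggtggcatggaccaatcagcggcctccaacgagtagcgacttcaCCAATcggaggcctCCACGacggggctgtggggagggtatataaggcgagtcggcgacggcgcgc
Pdia6 promoter: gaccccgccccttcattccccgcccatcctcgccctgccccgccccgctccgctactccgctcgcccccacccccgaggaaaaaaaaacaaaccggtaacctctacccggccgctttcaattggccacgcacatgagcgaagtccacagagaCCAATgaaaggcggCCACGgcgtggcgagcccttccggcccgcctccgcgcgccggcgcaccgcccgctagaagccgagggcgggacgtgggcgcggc
Herpud1 promoter: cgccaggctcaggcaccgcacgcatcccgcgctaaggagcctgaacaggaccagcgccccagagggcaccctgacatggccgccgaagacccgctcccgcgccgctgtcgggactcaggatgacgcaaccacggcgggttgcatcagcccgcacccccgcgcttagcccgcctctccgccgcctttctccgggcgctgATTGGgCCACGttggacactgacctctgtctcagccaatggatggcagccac

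The deposited counts added up to between 33633196 and 43928723 per library. The 10 genes took from 0.204% to 0.221% of them in control libraries, and 0.152%, 0.217% and 0.199% in mutant 1, 2 and 3. Markers of CD4 T cells were present in every library, with Cd4 from 391 to 604 CPM (counts relative to the TMM-scaled library size). Of the 8 markers 7 had higher means in mutant cells, with a median log2 fold change of 0.21. Their mean level was 0.51 above the control mean in mutant 1 on the log2 scale, against 0.053 and -0.045 in mutant 2 and 3, and Cd3e was at 363 CPM in mutant 1 and from 180 to 264 CPM in control libraries. Without mutant 1, 6 of the 8 were lower. Mutant 1 stood apart from the other 5 libraries. Its naive T cell list (10 genes) was 1.52 above the control mean on the log2 scale, and its activation list (12 genes) 0.59 below, at -0.59. In mutant 2 and 3 those levels were 0.092 and -0.23 for the naive list and 0.046 and -0.019 for the activation list. Fold changes of the 10 genes and counts over lists are therefore also given without mutant 1.

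The comparison asked whether cells with mutant Sf3b1 held different amounts of these mRNAs. No member passed: 0 of 18323 genes (0%) had an adjusted p under 0.05 in edgeR's quasi-likelihood test, against 1396 (7.62%) at an unadjusted p under 0.05. DESeq2 called 99 genes, 0.633% of the 15628 to which it gave an adjusted p, and limma-voom 0 (1299 at an unadjusted p under 0.05). No member was called by either. Fitted log2 fold changes were below 0 for 8 of the 10 genes (10 of 10 with DESeq2), where 47.1% of all tested genes had a log2 fold change below 0. The median log2 fold change of the 10 was -0.23, beside 0.024 over all genes tested. In 2 genes, Hspa5 and Pdia6, the highest mutant library lay below the lowest control, against 7.48% of all genes. Without mutant 1, 7 of the 10 were below 0 and their median was -0.16. With only 2 mutant libraries left, 3 genes (Hspa5, Pdia4 and Pdia6) had mutant levels below all controls, against 11.9% of all genes.

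**Figure D1:**
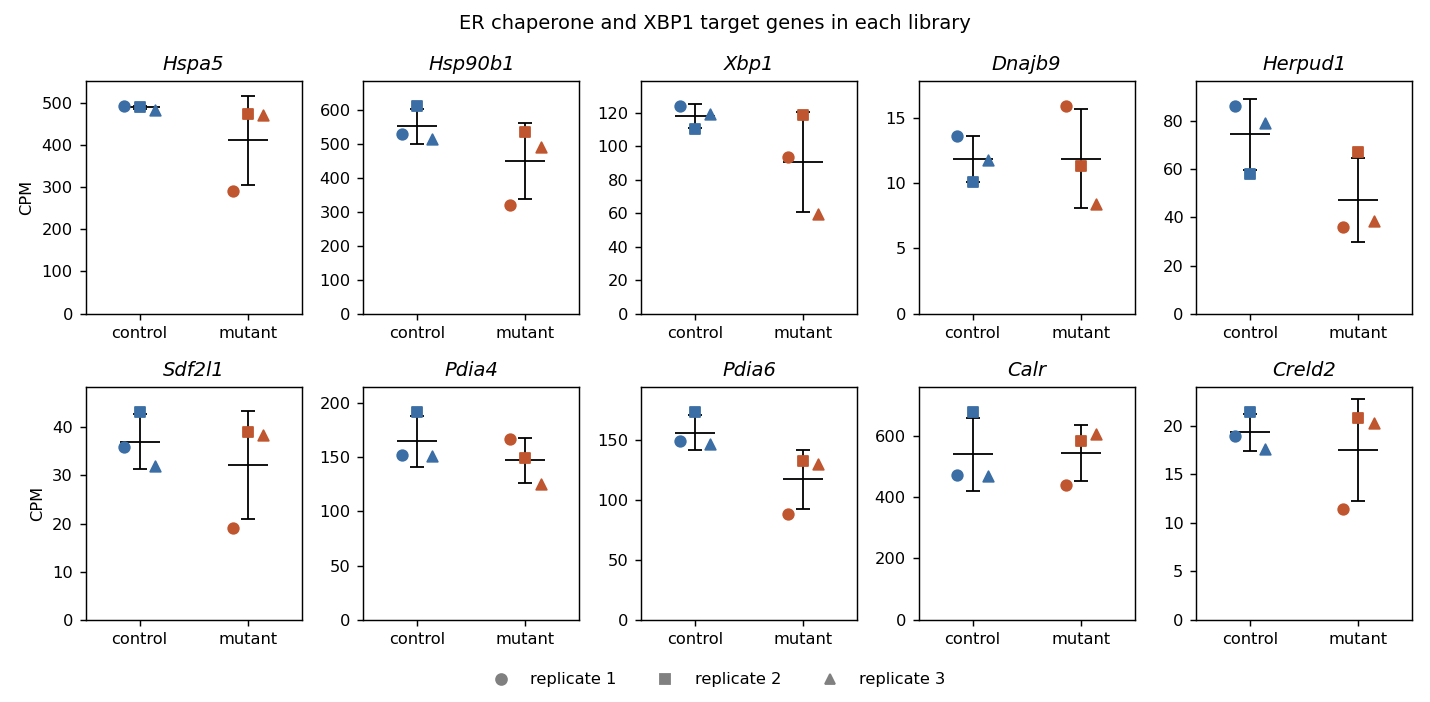
CPM (vertical axis, from 0) of each of the 10 genes in the 3 control (blue) and 3 mutant (orange) libraries, with marker shape for the replicate number and bars for the mean ± SD. Mutant 1 (orange circle) is the lowest library for 7 genes and mutant 3 (orange triangle) for the other 3, and the groups are apart only for Hspa5 and Pdia6, with the TMM scaling used here.

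Xbp1 (ENSMUSG00000020484) encodes the transcription factor at the head of this programme. Its level was 124, 110 and 119 CPM in control 1, 2 and 3 and 93.5, 118 and 59.3 CPM in mutant 1, 2 and 3. Mutant 3 held the least and mutant 2 lay within the control range, so the groups overlapped. The means were 118 ± 7.08 and 90.4 ± 29.7 CPM (SD, n = 3), a log2 fold change of -0.38 ± 0.24 (SE) with a 95% interval from -0.93 to 0.17 (edgeR adjusted p = 0.736). Unlike Hspa5 and Hsp90b1 below, Xbp1 differed about as much without mutant 1 (log2 fold change -0.40), and without mutant 3 the value was -0.16.

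Hspa5 (ENSMUSG00000026864) encodes BiP, the abundant ATP-driven chaperone that also holds the 3 sensors inactive. It was at 493, 491 and 484 CPM in control 1, 2 and 3 and at 290, 474 and 470 CPM in mutant 1, 2 and 3. The controls were nearly equal, with a coefficient of variation of 0.945%, and all mutant libraries lay below them, 2 of them narrowly. The group means were 489 ± 4.62 and 411 ± 105 CPM (SD, n = 3). The Hspa5 log2 fold change stood at -0.25 ± 0.20 (SE; 95% interval from -0.72 to 0.22; edgeR adjusted p = 0.78). An exact two-sided permutation test gave p = 0.1, the smallest that 3 samples against 3 allow. With upper quartile scaling, or a filter of 1 CPM in 3 samples, mutant and control libraries overlapped. Without mutant 1 the log2 fold change was -0.039.

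Hsp90b1 (ENSMUSG00000020048) encodes GRP94, the ER member of the HSP90 family, which folds integrins and Toll-like receptors. Control 1, 2 and 3 held 528, 612 and 514 CPM and mutant 1, 2 and 3 held 321, 534 and 492 CPM. Mutant 1 and 3 lay below every control and mutant 2 among them. The log2 fold change of Hsp90b1 was -0.30 ± 0.21 (SE, 95% interval from -0.77 to 0.18; edgeR adjusted p = 0.75), and -0.092 without mutant 1. In GENCODE M21, 415 bases of its exons overlap a pseudogene on the other strand, and such reads cannot be told apart without strand. On the same strand its exons share 133 bases with Gm25745 and 63 with Gm15344, which strand would not separate.

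Both co-chaperone genes of BiP had groups that overlapped. Sdf2l1 (ENSMUSG00000022769), whose product works with an ER J-domain protein to keep clients soluble, was at 35.9, 43.2 and 32.0 CPM in the 3 controls, against 19.1, 38.9 and 38.3 CPM in mutant libraries 1 to 3. Mutant 1 alone was low, and the other 2 lay within the control range. The Sdf2l1 log2 fold change of -0.20 ± 0.28 (SE; edgeR adjusted p = 0.859) changed sign to 0.075 without mutant 1. Dnajb9 (ENSMUSG00000014905) encodes ERdj4, a J-domain protein that recruits BiP to IRE1 and to misfolded proteins. It was at 13.6, 10.1 and 11.8 CPM in the 3 controls, against 15.9, 11.3 and 8.40 CPM in mutant libraries 1 to 3. Dnajb9 was the one gene of the 10 that was highest in mutant 1, where Hspa5 and Sdf2l1 were lowest. The Dnajb9 log2 fold change came to 0.0047 ± 0.26 (SE; 95% interval from -0.60 to 0.61; edgeR adjusted p = 0.996), with a sign that changed with the scaling, and -0.25 without mutant 1.

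Calr (ENSMUSG00000003814) encodes calreticulin, a calcium-binding lectin that folds glycoproteins and takes part in loading MHC class I. It was at 473, 677 and 469 CPM in the 3 controls, against 438, 583 and 606 CPM in mutant libraries 1 to 3. Control 2 was highest and mutant 1 lowest, with the other 4 between. The means of 539 ± 119 and 542 ± 91.4 CPM (SD, n = 3) gave a log2 fold change of 0.0076 ± 0.20 (SE; 95% interval from -0.46 to 0.48; edgeR adjusted p = 0.993), which was below 0 with DESeq2 (-0.017) and 0.15 without mutant 1.

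Of the genes for oxidoreductases, which form and shuffle disulfide bonds, Pdia6 differed most. Pdia6 (ENSMUSG00000020571), a protein disulfide isomerase that also acts on the IRE1 sensor, was at 149, 173 and 146 CPM in control 1, 2 and 3. It was at 88.6, 133 and 130 CPM in mutant 1, 2 and 3, each below every control. The means were 156 ± 14.8 and 117 ± 24.7 CPM (SD, n = 3). The Pdia6 log2 fold change stood at -0.41 ± 0.18 (SE; 95% interval from -0.84 to 0.013; edgeR adjusted p = 0.659, unadjusted p = 0.0557), with an exact two-sided permutation p = 0.1. Without mutant 1 it was -0.24. In GENCODE M21, 50 bases of the Pdia6 exons overlap the protein-coding gene Atp6v1c2 on the other strand.

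Pdia4 (ENSMUSG00000025823), an isomerase of the BiP-containing chaperone complex, was at 152, 192 and 151 CPM in the 3 controls, against 167, 149 and 126 CPM in mutant libraries 1 to 3. Here mutant 1 was the highest mutant library and mutant 3 the lowest of all. The Pdia4 log2 fold change was -0.16 ± 0.17 (SE; edgeR adjusted p = 0.815), and -0.25 without mutant 1. Creld2 (ENSMUSG00000023272), an ER-stress-induced protein with isomerase activity, was at 19.0, 21.4 and 17.6 CPM in the 3 controls, against 11.4, 20.8 and 20.3 CPM in mutant libraries 1 to 3. As with Sdf2l1, mutant 1 alone was low. The Creld2 log2 fold change of -0.14 ± 0.24 (SE; edgeR adjusted p = 0.885) became 0.098 without mutant 1.

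Herpud1 (ENSMUSG00000031770) encodes a membrane protein of the HRD1 complex, which exports misfolded proteins from the ER for degradation, and it is also induced through PERK and ATF4. It was at 86.4, 58.1 and 79.5 CPM in control 1, 2 and 3 and at 36.0, 67.2 and 38.7 CPM in mutant 1, 2 and 3. Mutant 1 and 3 were the lowest, and mutant 2 lay above control 2, so the groups overlapped. The means were 74.6 ± 14.8 and 47.3 ± 17.3 CPM (SD, n = 3). Herpud1 had the largest difference of the 10, a log2 fold change of -0.66 ± 0.27 (SE) with a 95% interval from -1.28 to -0.034. It was the only one with an unadjusted p under 0.05 (edgeR unadjusted p = 0.0412, adjusted p = 0.645), where 3.48% of all genes were lower at that level. The log2 fold change was -0.48 without mutant 1 and -0.98 without mutant 2.

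**Figure D2:**
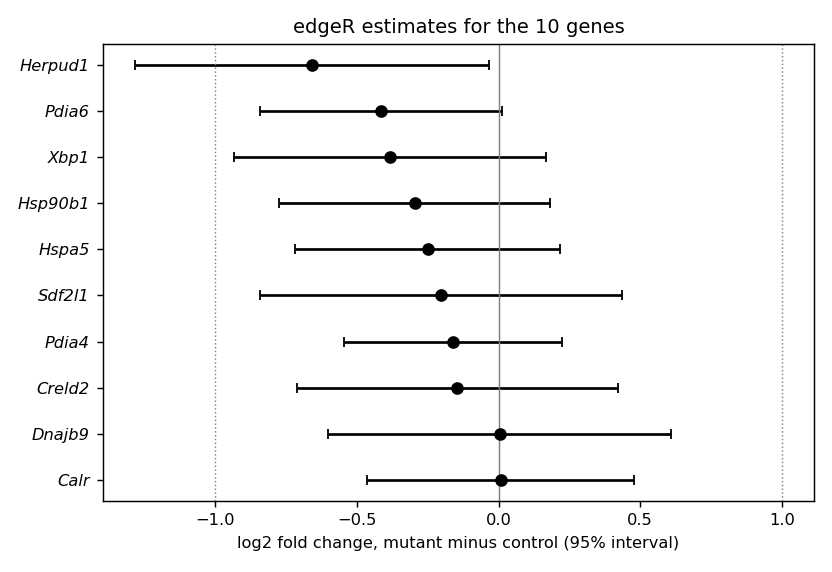
Log2 fold change, mutant minus control (horizontal axis), of each gene from edgeR's fit on 3 control and 3 mutant libraries, with 95% intervals as bars. Dotted lines mark a 2-fold change, and only the Herpud1 interval leaves out 0 and reaches past a 2-fold fall.

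The 95% intervals of 9 of the 10 genes, all but Herpud1, left out a 2-fold fall, and those of all 10 left out a 2-fold rise. Spread was wider among mutant than control libraries for 8 genes (the exceptions were Pdia4 and Calr). The median coefficient of variation was 12.1% in control and 27.8% in mutant libraries. Relative to each gene's control mean, the 10 genes ran from -1.03 to 0.43 in mutant 1 on the log2 scale, from -0.23 to 0.13 in mutant 2 and from -0.99 to 0.19 in mutant 3. Mutant 1 was lowest for Hspa5, Hsp90b1, Herpud1, Sdf2l1, Pdia6, Calr and Creld2, and mutant 3 for Xbp1, Dnajb9 and Pdia4. Mutant 1 lay below every control library for 8 genes, mutant 3 for 7 and mutant 2 for 3. The matching shares of all genes were not computed for single libraries, so these counts only describe the 10 genes. Genes with an ERSE or ERSE-II match had log2 fold changes from -0.66 to 0.0076 (5 of 6 below 0). The 4 genes without one ran from -0.38 to 0.0047 (3 of 4 below 0), so the values of the former covered those of the latter.

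Levels between genes were compared as CPM per kb of exon, with exon lengths from GENCODE M21. In control libraries Calr was highest at 247 ± 54.4 CPM per kb, then Hsp90b1 at 195 ± 18.7 and Hspa5 at 130 ± 1.23 (SD, n = 3). Pdia6 was at 71.8 ± 6.81, Pdia4 at 68.7 ± 9.73 and Xbp1 at 49.3 ± 2.96 CPM per kb. Lower levels were measured for Herpud1 at 38.2 ± 7.56, Sdf2l1 at 33.4 ± 5.12, Creld2 at 14.2 ± 1.41 and Dnajb9 at 4.80 ± 0.71 CPM per kb. Between neighbours in this order, the control libraries overlapped for Calr and Hsp90b1, for Pdia6 and Pdia4, and for Herpud1 and Sdf2l1. In mutant libraries the means of the last 2 of these pairs stood in the opposite order, with Pdia4 at 61.4 ± 8.68, Pdia6 at 53.8 ± 11.4, Sdf2l1 at 29.0 ± 10.2 and Herpud1 at 24.2 ± 8.87 CPM per kb. Without mutant 1 Pdia6 (60.4 CPM per kb) and Pdia4 (57.3) stood in the control order, while Sdf2l1 (34.9) remained above Herpud1 (27.1). These are levels of mRNA per length, and from the highest to the lowest gene they spanned 51.4-fold in control cells.

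**Figure D3:**
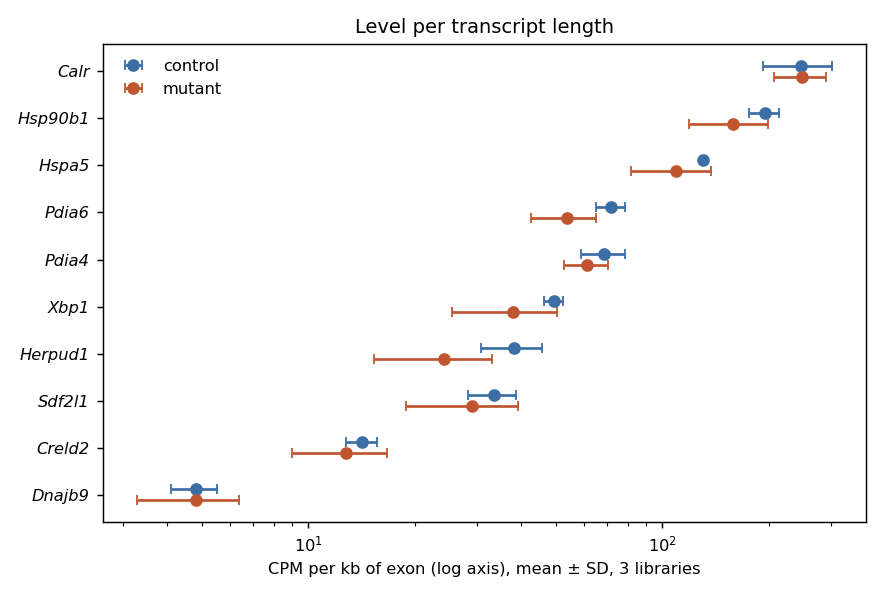
Mean level per kb of exon (horizontal log axis, CPM per kb) of the 10 genes in control (blue) and mutant (orange) libraries, with bars for the SD over 3 libraries. Genes are ordered by their control level, from Dnajb9 at 4.80 to Calr at 247 CPM per kb.

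The other ER folding genes had mostly lower means in mutant cells as well. Of 19 tested, 18 were lower, 0 passed edgeR's test, and 5 had every mutant below every control library (beside 7.48% of all genes), with a median log2 fold change of -0.16. Manf, a secreted ER-stress protein, was at 104, 108 and 102 CPM in the 3 controls, against 65.2, 90.2 and 88.8 CPM in mutant libraries 1 to 3. Txndc5 and Sil1, an isomerase and the nucleotide exchange factor of BiP, did not overlap either, with log2 fold changes of -0.24 and -0.26. Ero1a, the oxidase that recharges the isomerases, overlapped (-0.60). Without mutant 1, 15 of the 19 were lower, with a median of -0.098.

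Genes for entry into the ER and for export from it gave similar counts. In the translocation list 14 of 17 were lower (median log2 fold change -0.16), among them Sec63, a partner of the translocon, at 139, 137 and 144 CPM in the 3 controls, against 102, 120 and 120 CPM in mutant libraries 1 to 3. Srprb, a subunit of the signal recognition particle receptor, and the signal peptidase gene Sec11a had log2 fold changes of -0.37 and -0.21, and Sec11c, another signal peptidase gene, one of 0.32. For N-linked glycosylation 11 of 13 were lower (median -0.17), with Alg5 at -0.35 and Dpagt1, the enzyme that begins the lipid-linked sugar, at -0.38. In the ER to Golgi list 13 of 18 were lower (median -0.061). Lman1, the cargo receptor ERGIC-53, was at 101, 112 and 109 CPM in the 3 controls, against 53.8, 67.8 and 79.7 CPM in mutant libraries 1 to 3, well apart, with a log2 fold change of -0.68 ± 0.17 (SE). Its edgeR adjusted p was 0.598 and its DESeq2 adjusted p 0.141. No gene of these 3 lists passed edgeR's test. Without mutant 1 the lower genes numbered 12 of 17, 10 of 13 and 12 of 18, with medians of -0.068, -0.094 and -0.055.

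The genes for sensors and for degradation gave other counts. Of 6 genes for sensors and transducers, 3 were lower and 3 higher, with a median log2 fold change of 0.022, and without mutant 1, 5 were lower (median -0.050). Eif2ak3, which encodes PERK, was at 47.8, 40.0 and 43.3 CPM in the 3 controls, against 123, 49.1 and 35.0 CPM in mutant libraries 1 to 3, high only in mutant 1. Ern1, which encodes IRE1, was at 16.0, 11.6 and 16.9 CPM in the 3 controls, against 18.1, 18.5 and 15.5 CPM in mutant libraries 1 to 3, with overlap. Atf6 and Mbtps2, a protease that cleaves ATF6, had log2 fold changes of -0.24 and -0.27. In the ER-associated degradation list 12 of 16 had higher means (median 0.031; 11 of 16 without mutant 1, where 5 were lower). Syvn1, the HRD1 ubiquitin ligase to which Herpud1 binds, was at 32.5, 38.8 and 35.2 CPM in the 3 controls, against 47.5, 54.9 and 39.9 CPM in mutant libraries 1 to 3. Every mutant library lay above every control for Syvn1 (beside 6.6% of all genes), with a log2 fold change of 0.42 ± 0.16 (SE; edgeR adjusted p = 0.645). Derl3 and Os9 had log2 fold changes of 0.67 and 0.14 and Sel1l, the partner of HRD1, one of -0.13.

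The order of libraries for Herpud1 was also seen in genes of the PERK and ATF4 branch. Of 12 tested, 11 were lower in mutant cells, with a median log2 fold change of -0.42 (9 of 12 and -0.68 without mutant 1), and 0 passed edgeR's test. Asns, asparagine synthetase, was at 125, 38.2 and 109 CPM in the 3 controls, against 4.27, 49.1 and 14.4 CPM in mutant libraries 1 to 3. Chac1, which degrades glutathione, was at 13.2, 2.92 and 14.1 CPM in the 3 controls, against 0.254, 5.58 and 0.815 CPM in mutant libraries 1 to 3. As for Herpud1, control 2 was the lowest control, mutant 2 lay above it, and mutant 1 and 3 were lowest in both genes. Atf4 itself was at 436, 341 and 445 CPM in the 3 controls, against 148, 318 and 307 CPM in mutant libraries 1 to 3, without overlap (log2 fold change -0.66 ± 0.29 SE; edgeR adjusted p = 0.656). Bbc3, a pro-apoptotic BCL2 family gene, had a higher mean (0.54).

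Chaperones outside the ER had as a list a low level in mutant 1 (-0.69 on the log2 scale), against -0.025 and 0.19 in mutant 2 and 3. Of 16 tested cytosolic and mitochondrial chaperone genes, 13 were lower (median log2 fold change -0.11), and without mutant 1 only 4 were (median 0.042). Hspa9, the mitochondrial HSP70, was at 845, 869 and 810 CPM in the 3 controls, against 355, 627 and 853 CPM in mutant libraries 1 to 3. Hspd1, its HSP60 partner, was at 662, 894 and 685 and at 272, 582 and 872 CPM. The chaperonin genes Cct2 and Cct5 had log2 fold changes of -0.23 and -0.20. Set against the summed counts of this list within each library, 6 of the 10 ER genes were below 0 and 4 above on the log2 scale, with a median of -0.041. The values ran from -0.46 for Herpud1 and -0.20 for both Xbp1 and Pdia6 to 0.20 for Dnajb9 and 0.25 for Calr. The summed level of the list was 6307 CPM in mutant 1, against 9997 and 11862 CPM in mutant 2 and 3. It was 9908 to 12061 CPM in control libraries. A low sum raises the ratio in that library, and the ratios were not computed without mutant 1.

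**Figure D4:**
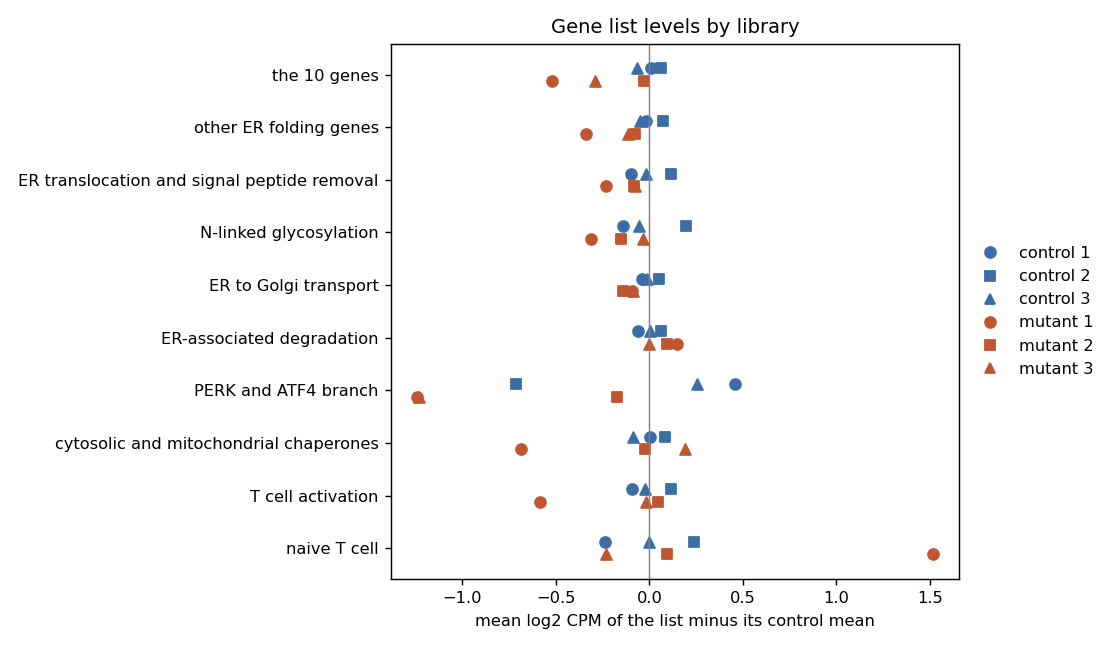
Mean log2 CPM of each gene list minus its control mean (horizontal axis) in each library, with colour for the group and marker shape for the replicate number. For the 10 genes mutant 1 sits at -0.52, mutant 2 at -0.030 and mutant 3 at -0.29, while mutant 1 is far right for the naive list and the PERK and ATF4 branch is low in control 2 as well.

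T cell activation genes and markers of other cells were read beside these values. In the activation list 9 of 12 were lower (5 of 12 without mutant 1). For 3 of the 12 every mutant library lay below every control, beside 7.48% of all genes. Irf4, a transcription factor of effector T cells, was at 1024, 952 and 1051 CPM in the 3 controls, against 575, 723 and 750 CPM in mutant libraries 1 to 3, without overlap. Tfrc (log2 fold change -0.53) and Myc (-0.25) did not overlap either. Icos was at 0.54. In the naive list 9 of 10 were higher, and S1pr1, a receptor for exit from lymph nodes, was at 33.2, 56.3 and 37.5 CPM in the 3 controls, against 246, 56.6 and 33.96 CPM in mutant libraries 1 to 3. Slfn2, S1pr1 and Klf2 had log2 fold changes of 0.73, 1.41 and 1.43, and 7 of the 10 naive genes were lower without mutant 1. The part of activation in the levels of the 10 genes was not tested.

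B lineage markers were read because plasma cells, which secrete antibody, depend on XBP1. Ms4a1 and Pax5 were at 7.68 and 11.5 CPM in mutant 2, at 0.761 and 1.68 CPM in mutant 3 and below 1 CPM in the other 4 libraries. Cd79a was at 0.929, 0.467 and 0.826 CPM in the 3 controls, against 1.84, 5.15 and 2.20 CPM in mutant libraries 1 to 3, without overlap (edgeR adjusted p = 0.598; DESeq2 adjusted p = 0.0186). The plasma cell gene Mzb1 was at 0 in 5 libraries and at 0.425 CPM in mutant 2, and Jchain was below 0.4 CPM in all 6. The summed level of the 10 B lineage markers, most of it Ighm, ran from 136 to 159 CPM in control and from 124 to 225 CPM in mutant libraries. Mutant 2, the library with the most B lineage mRNA, was the mutant library with the most Xbp1 and Herpud1, and without it the median log2 fold change of the 10 genes was -0.34. The 9 macrophage and dendritic cell markers summed to between 2.28 and 4.73 CPM in control and between 3.11 and 5.18 CPM in mutant libraries. The 7 CD8 T and NK cell markers summed to between 8.56 and 46.8 CPM in control and between 9.30 and 27.4 CPM in mutant libraries. Their part in the result was not tested. In bulk RNA, fewer cells of a type and less RNA per cell cannot be told apart.

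Among the 8098 genes whose mean log2 CPM was at least 4, those whose level over the 6 libraries was most like the mean of the 10 genes included Kdm1b, Rmrp, Armcx4 and Rn7s2. Their Pearson r, a description over 6 libraries, ran from 0.986 to 0.993. Kdm1b, a histone demethylase, was at 46.2, 50.8 and 44.1 CPM in the 3 controls, against 28.3, 43.2 and 34.3 CPM in mutant libraries 1 to 3. Rn7s2, a copy of the RNA of the signal recognition particle whose near-identical copies make its count uncertain, was at 7813, 8357 and 6857 CPM in the 3 controls, against 3207, 7104 and 3954 CPM in mutant libraries 1 to 3. For Hspa5 alone the most alike were Golga3, Echdc1 and Plcg2 (lowest r 0.996). The 6 points share their libraries with the 10 genes, and mutant 1 lies far from the rest.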

How the data were processed

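RNA was measured in 3 control and 3 mutant cultures. The values in the deposited table are unnormalized estimated counts. The authors used STAR 2.7.8a and Partek with the builds GRCm39 and mm39, per the submitters' processing notes, which give neither their roles nor the annotation. Whether strand was used is not given in these sources. The estimated counts were rounded to whole numbers before testing.

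In R 4.3.3, filterByExpr (minimum count 10) kept 18323 of 26469 genes, including all 10 described. Libraries were scaled by TMM and compared with edgeR 4.0.16's quasi-likelihood test without covariates. Two-sided p-values received Benjamini-Hochberg adjustment over every gene tested, with a threshold of 0.05. Standard errors were recovered from the F statistic and the 95% intervals use the test's total degrees of freedom. Log2 CPM used a prior count of 2. Libraries of 1 group differed by more than sampling noise (chi-square divided by its degrees of freedom was 18.8 to 176), and each was 1 replicate. On simulated data for mutant against control (18323 genes, 100 changed at each fold), edgeR made 8 false calls and recovered 29% of 2-fold and 92% of 4-fold changes. DESeq2 made 57 and recovered 58% and 100%.

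The 10 genes and the other lists were chosen with earlier results of these data known. All 10 genes were described, with up to 4 tested genes of each other list by smallest p, and the genes most alike over the 6 libraries. Alternatives were DESeq2 1.42.0, limma-voom (limma 3.58.1), other scalings and filters, a replicate block and leaving out each library. Exon lengths came from GENCODE M21 and promoters from RefSeq, both on GRCm38, not the authors' build. In gene counts, spliced and unspliced Xbp1 mRNA cannot be told apart. A few genes that this naming would include are not reported here.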

Additional observations from a re-analysis of the deposited data

How the results depend on the processing

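No member of the 10 genes was called under any of the 14 refits with an adjusted p (lowest adjusted p 0.384), and Hspa5, Hsp90b1, Xbp1, Herpud1 and Pdia6 had a lower mean in each of 15 alternatives. DESeq2 called 99 genes over all, none of them a member. The number of members with every mutant below every control library was 1 (Pdia6) with upper quartile scaling and 1 with a filter of 1 CPM in 3 samples, and ran from 2 to 5 when single libraries were left out (4 without control 2, 5 without mutant 2), where a group of 2 libraries makes such counts larger, at 8.13% to 16.1% of all genes. The count with a lower mean ran from 7 to 9 and the median log2 fold change from -0.34 to -0.16 in those fits. Values near 0 changed sign. Dnajb9 was at -0.015 with DESeq2, -0.030 with limma-voom, -5.39e-05 with DESeq2 size factors, -0.012 without a count filter and from -0.25 to 0.20 with single libraries left out. Calr was at -0.017 with DESeq2, -0.0094 without a count filter and from -0.085 to 0.20 with single libraries left out. Among the refits, Sdf2l1 ran from -0.35 to 0.075 and Creld2 from -0.27 to 0.098, both positive only without mutant 1. Relative to the other chaperones, with mutant 1 included, Pdia4 was at 0.072 and Creld2 at 0.043. The cause was not tested. With the replicate number as a block 0 genes were called (991 at an unadjusted p under 0.05), the median of the 10 was -0.27, and Dnajb9 was at -0.032. Same-numbered libraries did not deviate together (r from -0.067 to -0.028). With 3 libraries a group, this cannot show whether the numbers pair the samples. The lists read without mutant 1 were chosen for this after seeing the data. With 3 libraries a group, edgeR mostly missed 2-fold changes in simulated data (29% recovered). DESeq2 recovered 58% of them, with more false calls.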
